A study of Arabidopsis thaliana with 12 samples.

Results

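IRT3 (AT1G60960) is a zinc and iron transporter gene of Arabidopsis thaliana and belongs to the ZIP family of metal carriers. It is described here with 9 relatives, ZIP1, ZIP2, ZIP3, ZIP4, ZIP5, ZIP6, ZIP9, ZIP11 and IAR1, which makes 10 of the 32833 genes in the count table. The family was chosen by the counts of IRT3 in the imbibed libraries, which were far higher in erf4 than in wild type. That contrast is therefore described without a test, for IRT3 and for every other gene. RNA was sequenced from seeds of the wild type Col-0 and of erf4-1, labelled a knockout of ERF4 in the Col-0 ecotype. Seeds of each genotype were freshly harvested and taken dry, or were first kept on wet filter paper for 6 h to take up water (imbibition). The 12 libraries form 4 groups of 3 replicates. Since the labels give no plant or harvest for a replicate, the p-values measure only how far these samples spread, which may be technical.

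ZIP proteins carry zinc, iron, manganese and related metal ions towards the cytosol, from outside the cell or out of an organelle. In Arabidopsis several of them are induced by zinc deficiency through the factors bZIP19 and bZIP23, which bind a palindrome in their promoters known as the zinc deficiency response element (ZDRE). Seeds hold metals in vacuoles and mobilise them during germination, and ERF4 is a repressor of the ERF family, whose members bind the GCC box.

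The ZDRE core TGTCGACA, which reads the same on both strands, was searched upstream of each member, since IRT3 and its closest relative ZIP4 both carry it. Sequences are from the TAIR10.1 assembly, read 5′ to 3′ on the gene's own strand, with the core in capitals. In the first line, the 300 bases before the annotated start of IRT3 (minus strand, chr1:22447300-22447599) overlap no gene. The 3 lines after it hold the core with 8 bases on each side, as found upstream of IRT3 (core at chr1:22447316-22447323), ZIP4 (minus strand, chr1:3667171-3667178) and ZIP5 (minus strand, chr1:1548673-1548680).
IRT3 upstream: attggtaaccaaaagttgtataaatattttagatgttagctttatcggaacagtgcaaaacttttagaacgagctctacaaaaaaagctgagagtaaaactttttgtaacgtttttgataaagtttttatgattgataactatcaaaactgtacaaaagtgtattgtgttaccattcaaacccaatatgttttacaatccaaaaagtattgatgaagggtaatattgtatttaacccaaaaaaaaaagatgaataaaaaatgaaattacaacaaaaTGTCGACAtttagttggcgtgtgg
IRT3 site: caacaaaaTGTCGACAtttagttg
ZIP4 site: cgcgaaaaTGTCGACAtatttggc
ZIP5 site: acaatttaTGTCGACAttctctcg
The core began 24 bases before the start of IRT3, 39 bases before that of ZIP4 and 831 bases before that of ZIP5. It was in none of the other 7 members' 1000 bases upstream. Over 32546 genes, 0.31% held the core within 300 bases and 1.01% within 1000 bases. The GCC box core GCCGCC, searched on both strands, was in neither window of any of the 10 members, against 2.3% and 8.47% of all genes. Since the ZDRE core was chosen because IRT3 and ZIP4 carry it, its shares over all genes are no measure of enrichment. The letters are a description of these windows and not evidence of binding.

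IRT3 lies on chromosome 1 at 22445299 to 22447299 of TAIR10 on the minus strand, with 1916 bases of exon in 3 annotated transcripts. No other gene overlaps it, and none shares 95% identity over 100 bases or more. Its closest relative in sequence is ZIP4 (AT1G10970, chromosome 1, 3665087 to 3667139, minus strand), at 80.7% identity over 632 aligned bases. ZIP5 (AT1G05300), ZIP11 (AT1G55910) and IAR1 (AT1G68100) also lie on chromosome 1, ZIP3 (AT2G32270) and ZIP6 (AT2G30080) on chromosome 2, ZIP1 (AT3G12750) on chromosome 3, ZIP9 (AT4G33020) on chromosome 4 and ZIP2 (AT5G59520) on chromosome 5.

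The libraries held 31787283 to 42590777 counts. Levels are given as CPM, a gene's count relative to the library's TMM-scaled total, and 3 counts in a library were worth 0.0604 to 0.121 CPM. The seed identity of the samples was checked with 8 storage protein and oleosin genes, none of which was at 0 in any group. They summed to 155811 to 214955 CPM in dry Col-0 and to 119736 to 144318 CPM in the dry libraries labelled erf4. After imbibition they summed to 79646 to 125911 CPM in Col-0 and to 62818 to 97423 CPM in the libraries labelled erf4.

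ERF4, the gene named in the mutant, stood at 15.9, 13.6 and 12.5 CPM in dry Col-0 and at 21.0, 15.7 and 17.0 CPM in imbibed Col-0. In the mutant it was at 3.88, 9.003 and 15.3 CPM dry and at 1.67, 7.03 and 14.9 CPM imbibed. ERF4 in replicate 3 of the mutant (109% of the dry and 83.3% of the imbibed Col-0 mean) thus goes against the label. Replicate 2 also kept 64.3% of the dry and 39.2% of the imbibed Col-0 mean, and replicate 1 was lowest at 27.7% and 9.30%. Every mutant direction below therefore rests on the labels.

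In imbibed seeds IRT3 had 18, 30 and 30 counts in Col-0 and 2248, 1104 and 1925 counts in the libraries labelled erf4. On the CPM scale these are 0.451, 0.709 and 0.740 (0.633 ± 0.159, SD, n = 3) against 46.8, 24.5 and 38.7 (36.7 ± 11.3, n = 3). The lowest mutant library stood far above the highest Col-0 library. The fitted difference was 5.85 ± 0.38 SE on the log2 scale, or 57.9-fold, and from 5.63 to 6.06 when any single library was left out. These values chose the family and carry no test. Mutant replicate 3, in which ERF4 stood at 14.9 CPM, lay within the range of the other mutant libraries for IRT3. A link between ERF4 and IRT3 levels was not tested. Of the other members, ZIP1 differed by 2.62 ± 1.38 between the imbibed genotypes (2 counts summed over Col-0 and 17 over the mutant), ZIP5 by 0.10 ± 0.48, ZIP6 by -0.38 ± 0.39, ZIP11 by -0.17 ± 0.33 and IAR1 by -0.01 ± 0.14, all with groups that overlapped.

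**Figure D1:**
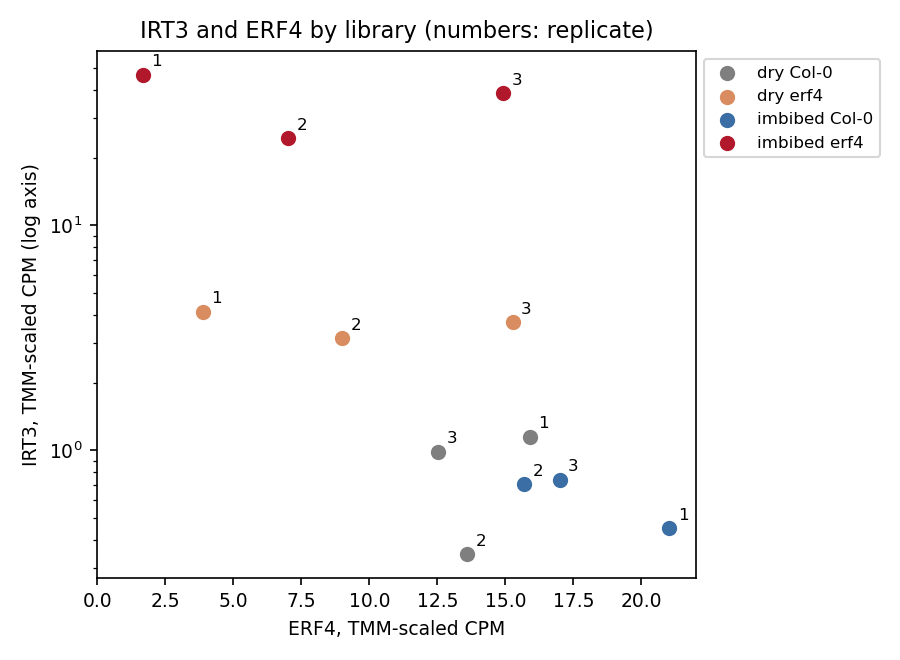
Level of IRT3 (y axis, TMM-scaled CPM, log axis) against ERF4 (x axis, TMM-scaled CPM) in each of the 12 libraries, coloured by group and numbered by replicate. The 3 imbibed libraries labelled erf4 lie between 24.5 and 46.8 CPM of IRT3, and their ERF4 levels run from 1.67 to 14.9 CPM. A link between these levels was not tested.

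Dry seeds were not used to choose the family, so the genotype difference was tested there. Dry Col-0 libraries held 37, 12 and 27 reads of IRT3 (1.15, 0.346 and 0.987 CPM, mean 0.828 ± 0.425, SD, n = 3). Dry erf4 libraries held 162, 78 and 122 of its reads (4.13, 3.15 and 3.72 CPM, mean 3.67 ± 0.494, n = 3). All 3 mutant libraries stood above all 3 of Col-0. IRT3 was 4.43-fold higher in the dry libraries labelled erf4 (log2 fold change 2.16 ± 0.36 SE, edgeR adjusted p = 0.0141). This call did not hold without dry Col-0 replicate 3 (log2 fold change 2.31, edgeR adjusted p = 0.0511), without both mutant libraries of number 3 (2.16, edgeR adjusted p = 0.0584) and with only the dry groups in the fit (edgeR adjusted p = 0.0746). Over all 18 alternatives the adjusted p ran from 1.26e-06 to 0.0746.

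Of the 7 members with enough counts to be tested, IRT3 was the 1 called in dry seeds, against 1.1% of all 18897 genes tested (0.519% in the higher direction). It was also the 1 member whose dry groups did not overlap, and 8.18% of all genes were higher in the mutant in that way. The other 6 did not pass. ZIP6 differed by 0.62 ± 0.39 (log2, edgeR adjusted p = 0.483), ZIP5 by 0.52 ± 0.49 (edgeR adjusted p = 0.649) and ZIP1 by 0.48 ± 0.94 (edgeR adjusted p = 0.855). ZIP4, the relative closest to IRT3 in sequence, differed by 0.35 ± 0.18 (edgeR adjusted p = 0.381). ZIP11 differed by 0.07 ± 0.34 (edgeR adjusted p = 0.949) and IAR1 by -0.07 ± 0.14 (edgeR adjusted p = 0.864).

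Summed marker levels of other cell types differed between the genotypes in the dry libraries. The summed level of 10 pollen markers was 207 to 355 CPM in dry Col-0 against 30.6 to 57.2 CPM in dry erf4. By edgeR 5 of the 8 tested fell, beside 1.1% of all genes called in either direction. TIP1;3 was the marker at 0 in dry Col-0. The 5 markers of green tissue summed to 47.4 to 65.8 CPM in dry Col-0 and to 71.5 to 192 CPM in the mutant, and none of the 3 tested passed by edgeR (unadjusted p under 0.05 for 2). Most of the green sum was RBCS1A, with a mean of 46.3 CPM in dry Col-0 and 112 CPM in dry erf4. The untested LHCB1.1 and LHCB2.1, at few counts, had lower means in dry erf4 with groups that overlapped. RBCS2B was the green marker at 0 in dry Col-0. In imbibed seeds the pollen sums overlapped (10.5 to 14.9 against 11.4 to 15.7 CPM), with TIP1;3 and ANX2 at 0 in both genotypes. There the green sums ran from 45.5 to 70.0 CPM in wild type and from 97.4 to 145 CPM in the mutant, with LHCB2.1 at 0 in the mutant. The part of these markers in the IRT3 difference was not tested. In such bulk samples fewer cells of a type and less RNA per cell cannot be told apart. The library names end in suffixes that the labels do not explain, and the names of all imbibed libraries end in 2r. Among dry libraries ending 1b, IRT3 was at 4.13 CPM in 1 mutant library and at a mean of 0.749 CPM in 2 of Col-0. Among those ending 2r it was at 3.72 CPM in the mutant and 0.987 CPM in Col-0.

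**Figure D2:**
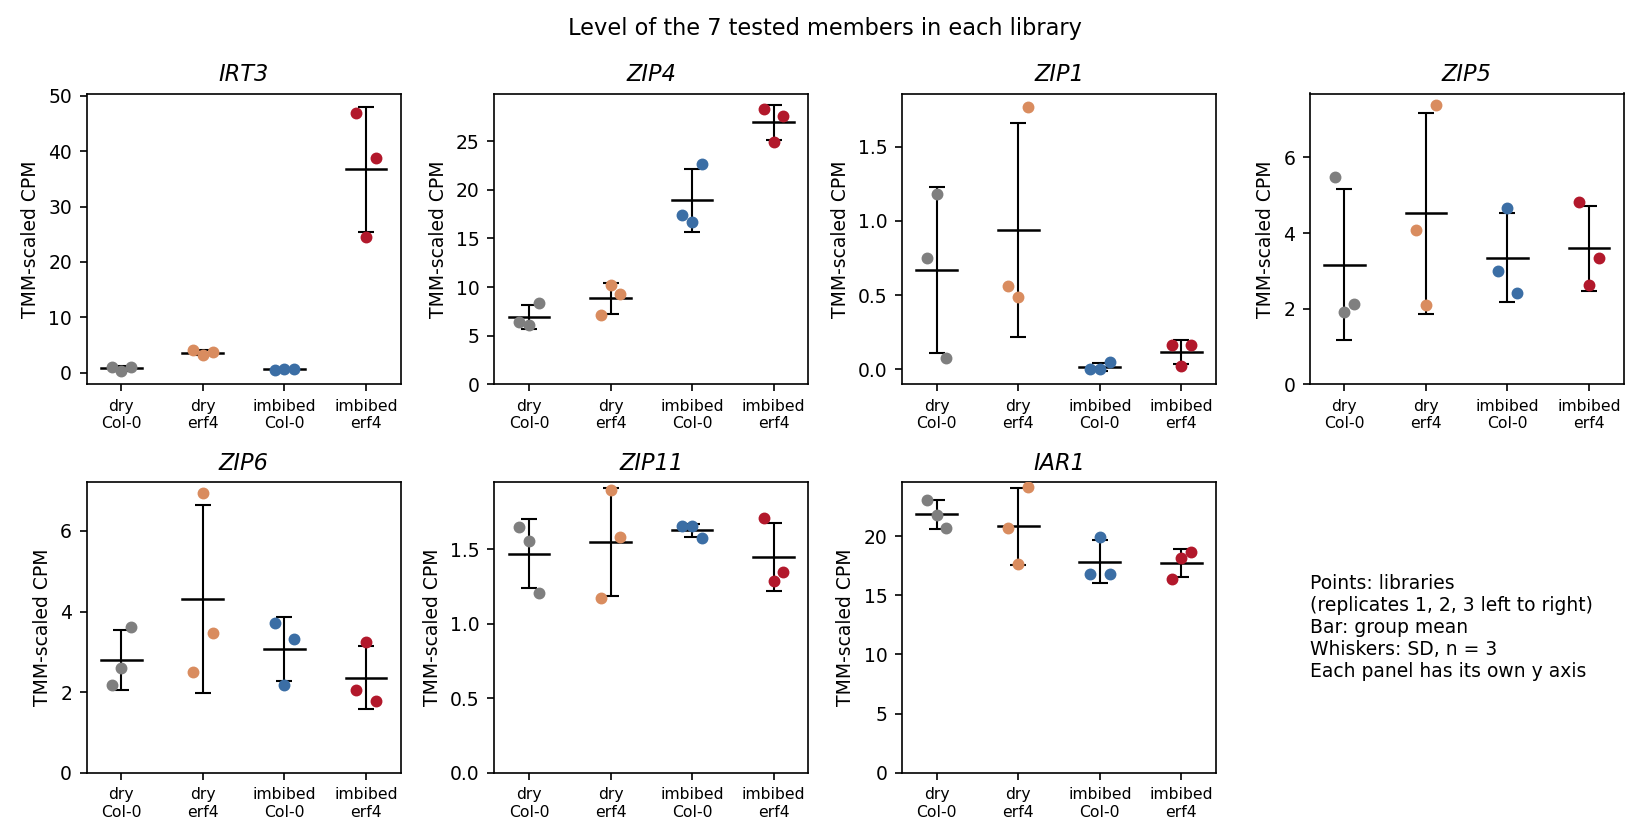
TMM-scaled CPM (y axis, one scale per panel) of the 7 tested members in each library of the 4 groups (x axis). Points are libraries, bars are group means and whiskers are SD of 3. IRT3 stands apart in imbibed erf4 (36.7 ± 11.3 CPM), ZIP4 is higher in both imbibed groups than in the dry ones, and ZIP1 is near 0 after imbibition.

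ZIP4, a transporter gene induced by zinc deficiency, rose with imbibition in both genotypes. In Col-0 it stood at 6.38, 6.06 and 8.37 CPM in dry seeds (6.94 ± 1.25) and at 17.4, 16.7 and 22.6 CPM in imbibed seeds (18.9 ± 3.23). In the mutant the dry libraries held 7.09, 10.2 and 9.27 CPM (8.86 ± 1.60) and the imbibed ones 28.3, 24.9 and 27.6 CPM (26.9 ± 1.82). Within each genotype every imbibed library was above every dry one. The rise was 1.45 ± 0.18 in Col-0 (log2, 2.73-fold, edgeR adjusted p = 2.75e-05) and 1.61 ± 0.18 in the mutant (3.04-fold, edgeR adjusted p = 1.01e-05), and passed under every alternative run. Between the imbibed genotypes ZIP4 differed by 0.51 ± 0.18, with each mutant library above each Col-0 library. This is given as a description, and 13.1% of all genes were higher in the mutant without overlap in that contrast. The ZIP4 difference was 1.42-fold where that of IRT3 was 57.9-fold.

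ZIP1, which encodes a carrier of the vacuole membrane, was lower after imbibition, at low counts throughout. Its dry libraries alone gave it enough counts to be tested. This favours a fall in either genotype, so its p-values with imbibition are given with that limit. In a fit of the Col-0 libraries alone ZIP1 was filtered out and not tested. Its counts were 24, 41 and 2 in dry and 0, 0 and 2 in imbibed Col-0 libraries (log2 fold change -5.11 ± 1.31, edgeR adjusted p = 0.00516). The names of the dry Col-0 libraries with 24 and 41 counts end in 1b. Those of dry Col-0 replicate 3, with 2 counts, and of every imbibed library end in 2r. For most of these counts seed state and name suffix thus cannot be told apart. The dry level was 43.7 times the imbibed one, with an exact 95% Clopper-Pearson interval of 11.6 to 368 that covers counting error only. It takes each count as independent. The settings of the counting are not known, and if reads of a pair were counted apart the interval is too narrow. The fitted value rests on the 2 counts of imbibed Col-0 replicate 3, without which the imbibed group had no count (fitted log2 fold change -7.67, a size that depends on the prior count, edgeR adjusted p = 0.00882). It was -4.42 without dry Col-0 replicate 2, which held most of the dry counts (edgeR adjusted p = 0.0228).

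In the libraries labelled erf4, ZIP1 had 22, 12 and 58 counts dry and 8, 1 and 8 counts imbibed (-2.97 ± 1.04, edgeR adjusted p = 0.026). Here the dry library with a name ending in 2r, replicate 3, held the 58 counts. The dry level was 7.99 times the imbibed one (4.73 to 14.3, with the same limits as in Col-0). This call was lost without dry erf4 replicate 3 (edgeR adjusted p = 0.136), without imbibed erf4 replicate 2 (edgeR adjusted p = 0.0877) or 3 (edgeR adjusted p = 0.0538), and without both mutant libraries of number 3 (edgeR adjusted p = 0.159). ZIP1 overlaps ALIS1, a gene on the other strand that encodes a subunit of a lipid flippase, by 125 bases. The strand setting of the counting was not given in the sources used here, so reads in the overlap cannot be told apart. ALIS1 fell too, from 30.5 ± 4.93 to 17.5 ± 2.04 CPM in Col-0 (edgeR adjusted p = 0.00262) and from 42.6 ± 10.1 to 17.5 ± 2.45 CPM in the mutant (edgeR adjusted p = 7.15e-05). The pollen markers also had lower sums after imbibition, 207 to 355 CPM dry and 10.5 to 14.9 CPM imbibed in Col-0. In the mutant these sums were 30.6 to 57.2 CPM dry and 11.4 to 15.7 CPM imbibed. The pollen marker ANX1 went the other way, from 2.99 to 6.21 CPM in Col-0 and from 1.74 to 7.53 CPM in the mutant. The part of ALIS1 or of the pollen markers in the ZIP1 values was not tested.

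The other members did not pass with imbibition. ZIP5 had 3.17 ± 2.00, 4.52 ± 2.67, 3.35 ± 1.16 and 3.596 ± 1.13 CPM in dry Col-0, dry erf4, imbibed Col-0 and imbibed erf4 (changes with imbibition 0.08 ± 0.49, edgeR adjusted p = 0.901, and -0.33 ± 0.48, edgeR adjusted p = 0.573). ZIP11, which can supply zinc to yeast that lack their own carriers, kept within 1.17 to 1.90 CPM over all 12 libraries (0.15 ± 0.33, edgeR adjusted p = 0.738, and -0.10 ± 0.33, edgeR adjusted p = 0.827). IAR1, a ZIP relative found through resistance to auxin conjugates, went from 21.8 ± 1.199 to 17.8 ± 1.80 CPM in Col-0 without overlap (-0.29 ± 0.14, edgeR adjusted p = 0.0974). In the mutant IAR1 went from 20.8 ± 3.27 to 17.8 ± 1.19 CPM (-0.23 ± 0.14, edgeR adjusted p = 0.177).

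ZIP6 was at 2.18, 2.60 and 3.62 CPM in dry Col-0 and at 3.71, 2.17 and 3.31 CPM in imbibed Col-0 (0.13 ± 0.39, edgeR adjusted p = 0.797). In the mutant it was at 2.50, 6.94 and 3.48 CPM dry and at 2.06, 3.24 and 1.77 CPM imbibed (-0.86 ± 0.39, edgeR adjusted p = 0.0773). The labels do not pair libraries across seed states, but same-numbered mutant libraries deviated together. With the number as a block within each genotype, added after that was seen, this change passed (-0.79 ± 0.30, edgeR adjusted p = 0.0351). It also passed without dry erf4 replicate 1 (edgeR adjusted p = 0.0253) and without imbibed erf4 replicate 2 (edgeR adjusted p = 0.0419). ZIP6 overlaps KT1, a potassium transporter gene on the other strand, by 36 bases, and the reads there cannot be told apart.

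With IRT3 left out of the count, 2 of the 6 tested members passed with imbibition in Col-0 (ZIP4 up, ZIP1 down), against 52.5% of all genes tested. The count was again 2 of 6 in the mutant, against 55.5% of all genes. With so few members, and with ZIP1 kept for testing by its dry libraries alone, nothing is read from these shares beside the background. The groups of ZIP4 did not overlap in either genotype, as was so for 65.8% of all genes in Col-0 and 58.5% in the mutant. Those of ZIP1 in Col-0 were parted by library scaling alone, since dry and imbibed replicate 3 both had 2 counts. IRT3 itself went from 0.828 to 0.633 CPM in Col-0 (-0.37 ± 0.40) and from 3.67 to 36.7 CPM in the libraries labelled erf4 (3.32 ± 0.33), without a test since its imbibed libraries chose the family. The genotype difference in IRT3 was larger in imbibed than in dry seeds by 3.68 ± 0.51 on the log2 scale. For the other 6 members that difference lay between -0.99 ± 0.56 (ZIP6) and 2.14 ± 1.65 (ZIP1).

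**Figure D3:**
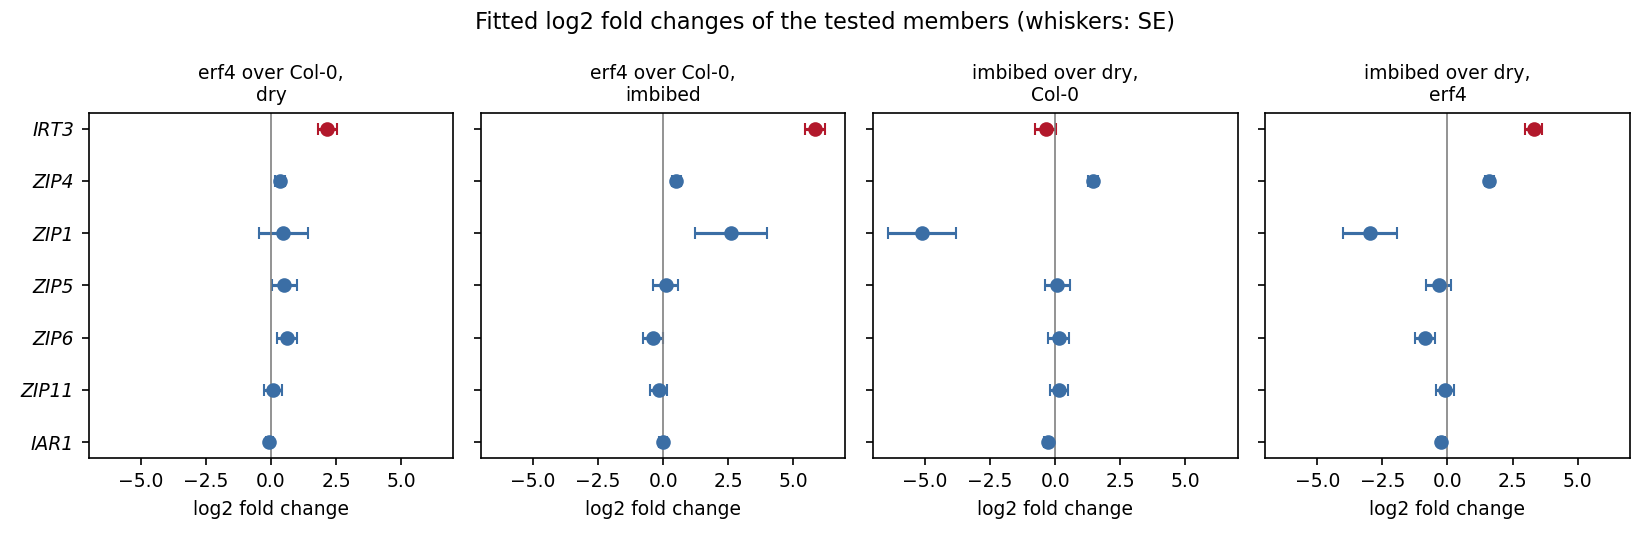
Fitted log2 fold changes (x axis) of the 7 tested members (y axis) in the 4 contrasts, one per panel, with SE as whiskers. IRT3 is at 2.16 in dry and at 5.85 in imbibed seeds for erf4 over Col-0, while ZIP4 is at 1.45 and 1.61 for imbibed over dry seeds.

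The remaining 3 members were near or at 0. ZIP3, a zinc carrier gene known from roots, had no count in any of the 12 libraries, which allows up to 0.00669 CPM over all of them. ZIP2, whose product carries zinc and manganese in roots, had 6 counts in imbibed erf4 replicate 3 and none elsewhere. ZIP9, a member induced by zinc deficiency, had 2 counts in dry Col-0 replicate 1 and none elsewhere. These 3 were not tested.

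Between genes, levels were compared per kilobase of exon. In dry Col-0 the order was IAR1 (11.4 ± 0.628 CPM per kb), ZIP4 (4.21 ± 0.761), ZIP6 (2.19 ± 0.581), ZIP5 (1.45 ± 0.919), ZIP11 (1.04 ± 0.165), ZIP1 (0.473 ± 0.396) and IRT3 (0.432 ± 0.222). ZIP6, ZIP5 and ZIP11 each overlapped their neighbour in that order, as did ZIP1 and IRT3. IRT3 was thus last of the 7 tested members in dry Col-0, and sixth in imbibed Col-0 at 0.331 ± 0.0828 CPM per kb. There ZIP4 (11.5 ± 1.96) and IAR1 (9.34 ± 0.942) came first and overlapped.

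In the dry libraries labelled erf4 IRT3 was at 1.91 ± 0.258 CPM per kb, within the range of ZIP5 (2.08 ± 1.22) and above ZIP11 (1.095 ± 0.256) without overlap. In the imbibed ones it came first at 19.1 ± 5.90 CPM per kb, its range overlapping that of ZIP4 (16.4 ± 1.11). Both stood above IAR1 (9.29 ± 0.626) without overlap. IRT3 made up 2.00 ± 0.962% of the 10 members' summed level in dry Col-0, 7.65 ± 1.74% in dry erf4 and 1.25 ± 0.270% in imbibed Col-0. In the imbibed libraries labelled erf4 its share was 44.1, 30.4 and 39.8%. Without IRT3 the sum was 20.8 ± 1.01, 23.5 ± 3.29, 25.9 ± 1.33 and 30.3 ± 0.889 CPM per kb in the same order of groups.

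**Figure D4:**
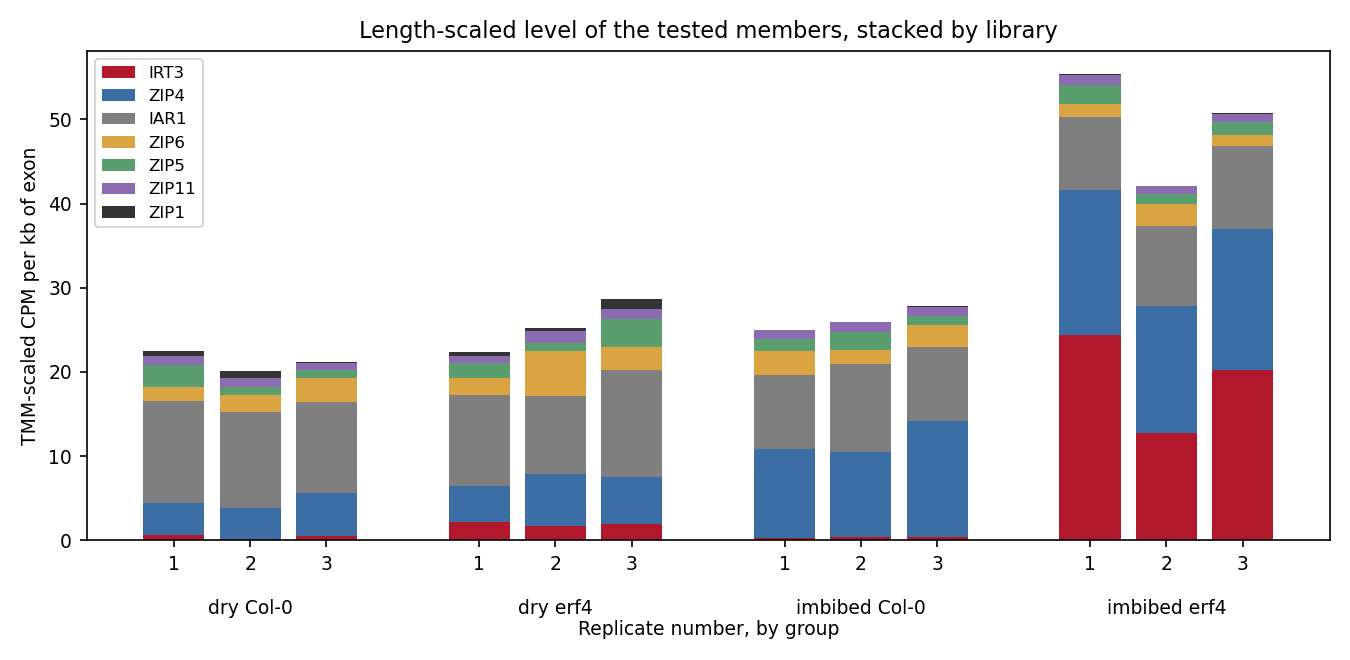
Stacked TMM-scaled CPM per kb of exon (y axis) of the 7 tested members in each library (x axis, replicate number by group). The imbibed libraries labelled erf4 sum to 42.0 to 55.4 CPM per kb, of which IRT3 takes 30.4 to 44.1%, and the other 9 libraries sum to 20.1 to 28.7.

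The 3 nearest tested genes on each side of IRT3 were read beside it. FED A (AT1G60950), a ferredoxin gene on the plus strand, ends 7 bases from the end of IRT3. It stood at 9.05, 10.5 and 11.99 CPM in dry Col-0 and at 21.9, 17.5 and 18.0 CPM in dry erf4. The groups did not overlap, and FED A was higher in the mutant (0.86 ± 0.19, edgeR adjusted p = 0.0425), a call lost in 11 of 18 alternatives, among them each of those without 1 dry library other than dry erf4 replicate 2 (edgeR adjusted p = 0.00238 to 0.159 over all 18). The others lost it without imbibed Col-0 replicate 2 or 3, without imbibed erf4 replicate 3, without both mutant libraries of number 3, with the replicate block and with only the dry groups.

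FED A in imbibed seeds had 24.4 ± 5.82 CPM in wild type and 35.1 ± 3.80 CPM in the mutant, a difference of 0.52 ± 0.18 without overlap. Whether reads that run past the end of one gene were counted to the other was not tested. On that side SNRK2.10, a stress kinase gene 3077 bases away, was at -0.49 ± 0.13 for the dry genotype difference (edgeR adjusted p = 0.0854) and RECQ4B, a DNA helicase gene 6421 bases away, by -0.57 ± 0.23 (edgeR adjusted p = 0.252). Upstream of IRT3, AT1G60970 (511 bases away) differed by -0.27 ± 0.19 (edgeR adjusted p = 0.534), AT1G60990 (14726 bases) by 0.27 ± 0.19 (edgeR adjusted p = 0.529) and SCRL7 (14860 bases) by 0.50 ± 0.53 (edgeR adjusted p = 0.691). The dry groups of SNRK2.10 and RECQ4B did not overlap. In imbibed seeds, without a test, both were again lower in the mutant without overlap (-0.47 ± 0.13 and -0.61 ± 0.23).

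**Figure D5:**
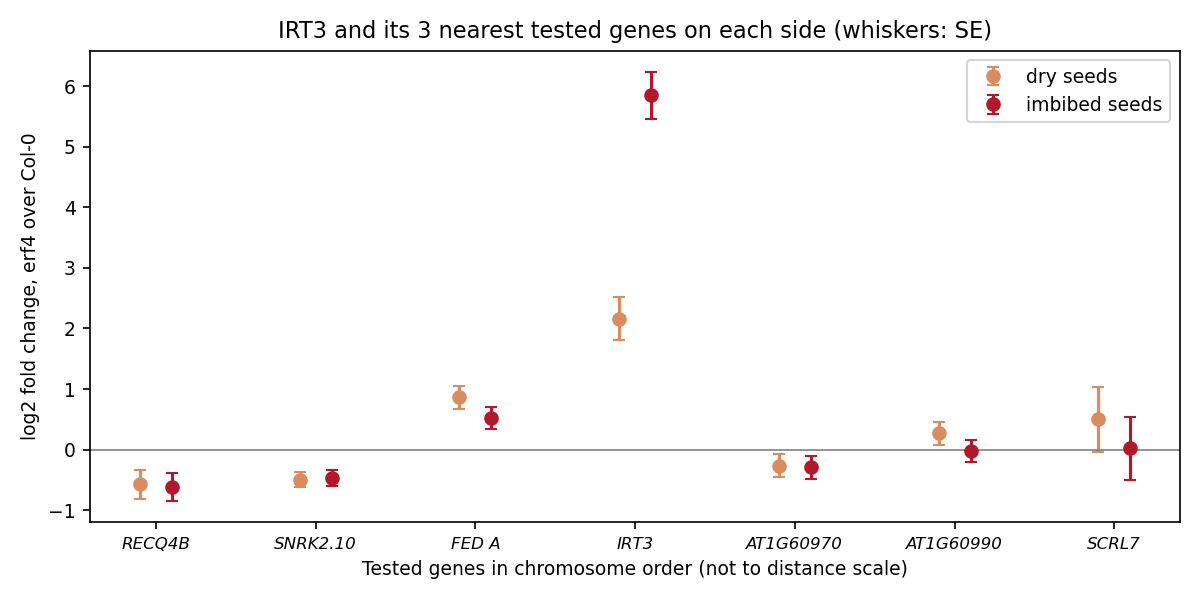
Fitted log2 fold change of erf4 over Col-0 (y axis) in dry and imbibed seeds for IRT3 and the 3 nearest tested genes on each side, in chromosome order and not to scale (x axis), with SE as whiskers. IRT3 stands at 2.16 and 5.85, and its neighbours lie between -0.61 and 0.86.

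By the pattern over the 12 libraries (Pearson r of log2 CPM, a description over libraries that share their groups), the genes most like IRT3 were AT1G29965 (r = 0.935), AT1G29960 (0.909), CRR7 (0.900), MYB66 (0.895) and AT1G17200 (0.887). CRR7 encodes a chloroplast protein of the NADH dehydrogenase-like complex, and MYB66, also called WEREWOLF, a factor of root epidermis patterning. AT1G29965 had 0 to 40 counts in a library and overlaps AT1G29970, and AT1G17200 overlaps AT1G17210. AT1G17200 was at 2.96 ± 0.488, 4.52 ± 0.958, 2.11 ± 0.498 and 8.33 ± 3.03 CPM in dry Col-0, dry erf4, imbibed Col-0 and imbibed erf4. MYB66 had no count in dry Col-0, and stood at 0.359 ± 0.0492 CPM in dry erf4, 0.0167 ± 0.0289 CPM in imbibed Col-0 and 0.958 ± 0.839 CPM in imbibed erf4. Among the members, r with IRT3 was 0.561 for ZIP4, 0.254 for ZIP5, 0.003 for ZIP1, -0.214 for ZIP11, -0.274 for ZIP6 and -0.281 for IAR1.

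Other genes of metal handling were read from 6 lists of 59 genes, of which 58 were in the table and 38 were tested. In dry seeds none of the 38 rose or fell by edgeR (9 had an unadjusted p under 0.05), with a median log2 difference of 0.06 beside 0.01 over all genes. DESeq2 called 3 of them, IREG2, AHA2 and the iron reductase gene FRO2, which is named after its values were seen, beside 4.95% of all genes that DESeq2 tested in that contrast. The ZDRE factors did not pass, bZIP23 differing by -0.29 ± 0.12 (65.9 CPM in Col-0 and 54.0 CPM in the mutant, edgeR adjusted p = 0.263) and bZIP19 by 0.04 ± 0.18 (edgeR adjusted p = 0.939). Of the other ZIP genes, IRT1, the main iron carrier of roots, and IRT2, ZIP7 and ZIP10 had no count, ZIP12 had 2 counts in dry Col-0 and 8 in dry erf4, and ZIP8 was not analysed here. The other tested ZIP genes were ZTP29, a zinc transporter gene (0.08 ± 0.15, edgeR adjusted p = 0.851), and AT3G08650 (0.26 ± 0.25, edgeR adjusted p = 0.668).

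The genes with the widest differences in the remaining lists did not pass by edgeR either. IREG2, a vacuolar carrier of nickel and cobalt, was at 0.341 CPM in dry Col-0 and 1.74 CPM in dry erf4 (2.32 ± 0.67, edgeR adjusted p = 0.115), and NRAMP6, a metal carrier inside the cell, at 9.70 and 4.12 CPM (-1.23 ± 0.45, edgeR adjusted p = 0.204). Nicotianamine, a chelator of zinc and iron, is made by NAS4 (1.56 ± 1.40, edgeR adjusted p = 0.632), and its metal complexes are carried by YSL3 (1.28 ± 0.51, edgeR adjusted p = 0.245). Of the iron uptake genes, the signal peptide gene IMA3 differed by -1.21 ± 1.28 (edgeR adjusted p = 0.691) and the proton pump gene AHA2 by 0.83 ± 0.26 (edgeR adjusted p = 0.148). Of the zinc export genes, HMA4 differed by -0.70 ± 0.64 (edgeR adjusted p = 0.636) and PCR2 by 0.51 ± 0.57 (edgeR adjusted p = 0.719). In imbibed seeds, described without a test, HMA4 (log2 2.15 ± 0.68) and IREG2 (1.65 ± 0.66) were higher in the mutant without overlap. Summed counts in Col-0 and the mutant were 23 and 122 for HMA4 and 36 and 132 for IREG2. Over all genes 13.1% were higher in that way, so nothing is read from these genes about the lists. NRAMP6, NAS4, YSL3, IMA3, AHA2 and PCR2 had imbibed groups that overlapped. Of other listed genes named so far, FRO2 (0.50 ± 0.18) was higher and AT3G08650 (-0.63 ± 0.25) lower there without overlap. Listed genes not named here also parted in either direction, and the share of all genes lower without overlap is not given. The imbibed groups of ZTP29, bZIP19 and bZIP23 overlapped.

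With imbibition 7 of the 38 rose and 10 fell in Col-0, and 5 rose and 15 fell in the libraries labelled erf4. These are 44.7% and 52.6% of them, beside 52.5% and 55.5% of all genes tested, so the genes below are given as values and not as a result about the lists. For bZIP23 the log2 change was -0.40 ± 0.12 in Col-0 (edgeR adjusted p = 0.0118) and -0.23 ± 0.12 in the mutant (edgeR adjusted p = 0.116). For bZIP19 it was -0.42 ± 0.18 in Col-0 (edgeR adjusted p = 0.0696) and -0.50 ± 0.18 in the mutant (edgeR adjusted p = 0.0333), and a difference between the genotypes was not tested. NRAMP6 fell in both genotypes, from 9.70 to 1.06 CPM in Col-0 (edgeR adjusted p = 0.000133) and by 1.63 ± 0.47 on the log2 scale in the mutant (edgeR adjusted p = 0.0095). AHA2 rose in both, from 32.4 to 106 CPM (edgeR adjusted p = 0.000185) and from 57.8 to 123 CPM (edgeR adjusted p = 0.00364). PCR2 fell from 25.5 to 7.59 CPM in Col-0 (edgeR adjusted p = 0.0284) and from 36.2 to 9.74 CPM in the mutant (edgeR adjusted p = 0.0181). MTP8, a vacuolar manganese and iron carrier of embryos named after its values were seen, was higher in imbibed seeds of both genotypes, at 23.2 CPM against 7.65 CPM in Col-0 (edgeR adjusted p = 1.22e-05) and at 32.6 CPM against 9.56 CPM in the mutant (edgeR adjusted p = 4.74e-06). Between the imbibed genotypes, without a test, MTP8 was higher in the mutant by 0.49 ± 0.18 without overlap.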

How the data were processed

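The deposited data are 1 table of raw counts, whole numbers of reads per gene, whose columns also give the position and exonic length of a gene, per the file headers. The submitters' processing notes name fastp 0.20.0 and HISAT2 2.1.0, and for later steps featureCounts 2.0.1 as well as DESeq2 1.34.0, on build TAIR10. Settings, including strand, are not given in the sources used here. Each of the 12 count columns was matched to a sample by its name. Of 32548 nuclear genes, 32520 (99.91%) had the same start and end in the TAIR10.1 annotation from which sequences were read.

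The filterByExpr step of edgeR 4.0.16, run in R 4.3.3, kept 18897 genes, which hold 99.97% of the reads. All 12 libraries entered 1 TMM-scaled quasi-likelihood fit of the 4 group means (8 residual degrees of freedom), and calls were made where the p adjusted over all tested genes (Benjamini-Hochberg) was under 0.05. The steps were tested on simulated data for the dry genotype contrast, with changed genes drawn from those over 1 CPM. Of genes changed by 1 on the log2 scale 58% were recovered, and of those changed by 2, 91%. A gene that did not pass in dry seeds can thus still differ. The prior count for log2 CPM was 2. Libraries of a group had r = 0.958 to 0.983 with each other across genes, and their counts differed by more than sampling noise (chi-square per degree of freedom 20.5 to 158). Intervals and floors of 3 counts cover counting error only and take each count as independent, which was not checked.

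The members and lists were chosen with earlier results of these data known. Genes named are the members, ERF4, the 3 nearest tested genes on each side of IRT3, the 5 most like it in pattern, and of each list the called genes of the dry genotype contrast, otherwise the 2 with the largest log2 fold change there. Alternatives were RLE size factors, no filter, DESeq2 1.42.0, the replicate number as a block, only the groups compared, each library or both mutant libraries of number 3 left out, and an adjusted p under 0.01. Same-numbered libraries deviated together across seed states in erf4 (correlation of their deviations across genes 0.341 to 0.350). This was not so for every pair in Col-0 (0.066 to 0.215) or between genotypes in dry seeds (-0.277 to 0.068). A block within each genotype was added after this check.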

Additional observations from a re-analysis of the deposited data

How the results depend on the processing

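The dry-seed rise of IRT3 (log2 2.16) kept its direction under every alternative run, from 1.78 to 2.50 with 1 library left out. It missed the threshold with only the dry groups in the fit (2.16) and without both mutant libraries of number 3 (2.16), and the number of members called in dry seeds was then 0 in place of 1, as it was at an adjusted p under 0.01 (0). With 1 library left out that number was 0 to 1. Over all genes the 207 calls in dry seeds became 936 by DESeq2, 114 with only the dry groups, 69 without both mutant libraries of number 3 and 37 at an adjusted p under 0.01. They ran from 41 to 284 with 1 library left out, below 207 by over 1.5 times without dry Col-0 replicate 1 (41), 2 (81) or 3 (56), dry erf4 replicate 3 (80) or imbibed Col-0 replicate 2 (129). With imbibition in Col-0 the members called went from 2 to 1 with only the groups compared, a fit in which ZIP1 was filtered out and not tested. In the mutant they went from 2 to 1 without both libraries of number 3 and at an adjusted p under 0.01 (1), to 3 with the replicate block within each genotype, and ranged from 1 to 3 with 1 library left out. With the replicate number as a block over all 12 libraries, IRT3 in dry seeds was 2.20 (edgeR adjusted p = 0.00905) and the members called were 1, 2 and 2 in the 3 contrasts. No direction of a called value reversed. Apart from that filtering of ZIP1, the cause of these changes was not tested. Among values of single genes, apart from those of IRT3 between genotypes given above, 669 stayed the same, 15 lost and 3 gained a call, and 3 untested ones moved beyond their spread between replicates. A tested value stayed the same if it kept its side of the threshold. An untested value did so if it kept within that spread, or changed sign where its main value was under its SE. Depth limits ZIP1, ZIP2, ZIP3 and ZIP9, which stand at few or no counts.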
